A study of Mus musculus with 32 samples.

Results

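Organoid cultures of mouse cells that carry a METTL3 fusion protein and received no dexamethasone (Dex) were compared with Mettl3 knockout cultures at day 6 of retinal differentiation. The comparison took the 2 libraries titled WTMTL3-GRBD no Dex d6 and the 2 libraries titled Mettl3 KO d6, chosen by their labels alone, which are 4 of the 32 libraries of the series. All genes of the deposited expression table were considered. The series followed 4 kinds of culture over days 0, 2, 4 and 6 by polyadenylated RNA sequencing, with 2 libraries for each of 16 groups. They are the Rx-GFP line (WT), the Mettl3 knockout (KO), and the knockout overexpressing wild-type METTL3 joined to a domain named GRBD, with or without Dex, a synthetic glucocorticoid. Both groups compared here share the Mettl3 knockout, the medium and AGN at 0.1 µM, and neither received Dex, which was 10 µM where it was given. They differ in the fusion construct, which the series design describes as cytosolic when Dex is absent. The knockout and the fusion line are named as 1 line each, so the construct and any other difference between the lines cannot be told apart. Separate cultures for the duplicates are not stated. The labels describe separate rounds of library preparation and sequencing for the duplicates, so p-values measure only the spread between these libraries.

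METTL3 is the catalytic subunit of the nuclear complex that writes N6-methyladenosine (m6A) on messenger RNA, a mark read by YTH-domain proteins that promote RNA decay and other steps of RNA metabolism. In the early neural plate, the eye field and the anterior forebrain are marked by transcription factors such as Rax, Six3, Lhx2 and Fezf2, while Irx, Pax3 and Pax7 genes mark more posterior or dorsal territory. Wnt signalling posteriorizes the neural plate early and patterns the dorsal forebrain later.

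Estimated depth was 46 M and 48.2 M fragments (M, mega) in the KO libraries and 36.7 M and 38.1 M without Dex, and duplicates correlated at Pearson r of 0.9955 and 0.9935 across genes. Values are FPKM, fragments divided by the length of the transcript and by the number mapped in that library, as deposited. At these depths 3 fragments on a 2 kb transcript equal 0.0311 to 0.0408 FPKM, a limit that covers counting error only. Changes are differences of log2(FPKM + 1), no Dex minus KO, with limma's standard error (SE) after the ± sign, and this scale understates changes of low genes. Calls are genes with a limma p below 0.05 after Benjamini-Hochberg adjustment. The values summed over all rows to 854210 and 850279 FPKM in KO and to 923903 and 926567 FPKM without Dex.

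The labelled tissue was checked against defining markers. Of 6 markers of retinal and optic vesicle identity, Rax, Six3 and Six6 stayed under 1 FPKM in both KO libraries, and Six6 did so without Dex. The sum of the 6 was 116.85 to 118.43 FPKM in KO and 182.32 to 185.92 FPKM without Dex, most of it Pax6, against at least 649.77 FPKM in WT. The eGFP row, which in the WT line stands for the reporter named in its label, was at 0 and 0.29 FPKM in KO and 0.1 and 0.3 FPKM without Dex, against a mean of 195 FPKM in WT. Neural progenitor markers (Sox1, Sox2, Sox3, Nes, Fabp7) summed to 650.45 to 651.9 FPKM in KO and 606.04 to 613.52 FPKM without Dex. Both kinds of culture therefore held neural RNA with hardly any of the retinal marker Six6. All 8 extraembryonic endoderm markers, all 4 mesendoderm markers and all 5 endothelial and blood markers were under 1 FPKM in both groups, and pluripotent cell markers summed to 26.48 to 28.38 FPKM in KO and 29.76 to 31.21 FPKM without Dex. In bulk RNA, fewer cells of a type and less RNA per cell cannot be told apart.

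Mettl3 itself (ENSMUSG00000022160; GRCm38 chromosome 14, 52294841 to 52305128, minus strand) was at 37.9 and 37.3 FPKM in KO and 45.2 and 51.9 FPKM without Dex (log2 change 0.36 ± 0.06, limma adjusted p = 7.48e-05). The groups did not overlap, and KO was close to the WT mean of 35.7 FPKM. A value per gene can include transcripts that carry a small deletion as well as those of the construct, so it does not check the labels, and KO below means the libraries labelled so. Nr3c1, the glucocorticoid receptor gene, was at 0.59 and 0.74 FPKM in KO and 0.51 and 0.68 FPKM without Dex, and its groups overlapped. Of 22 genes of the m6A machinery, 4 rose and 9 fell, so that 59.1% were called, against 49% of all tested genes. Those that fell included the writer-complex components Rbm15 (20.8 and 20.7 against 12.4 and 12.7 FPKM, KO first) and Rbm15b (65.4 and 67.8 against 33.3 and 33.2 FPKM) and the readers Ythdf1 (-0.50) and Ythdf2 (-0.49). The fall of Rbm15b was -0.98, and -0.49 with the GC and length trend described below removed. With that step 5 genes of the list were higher and 11 lower. Mettl14, the structural partner of METTL3, was at 27.6 and 26.5 FPKM in KO and 26.3 and 26.5 FPKM without Dex and was not called (log2 change -0.03 ± 0.04, limma adjusted p = 0.571).

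Of 16276 genes tested, 7983 were called, 49% of all. Without Dex 3439 genes were higher (21.1%) and 4544 lower (27.9%) than in KO. Of the calls 43.1% were higher, and 48.8% after the libraries were rescaled by median-of-ratios factors, so the excess of lower calls depends on the scaling. Most changes were small. The median size of a called change was 0.36, and 5642 of the calls were under 0.5. Only 331 genes, 2.03% of those tested, were called with a change of at least 1, 154 of them higher and 177 lower. Libraries of the groups did not overlap for 72.5% of tested genes. Shares of gene lists below are to be read against these backgrounds, and the median change of all genes was -0.01. Leaving out any 1 of the 4 libraries gave between 6822 and 7002 calls.

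**Figure D1:**
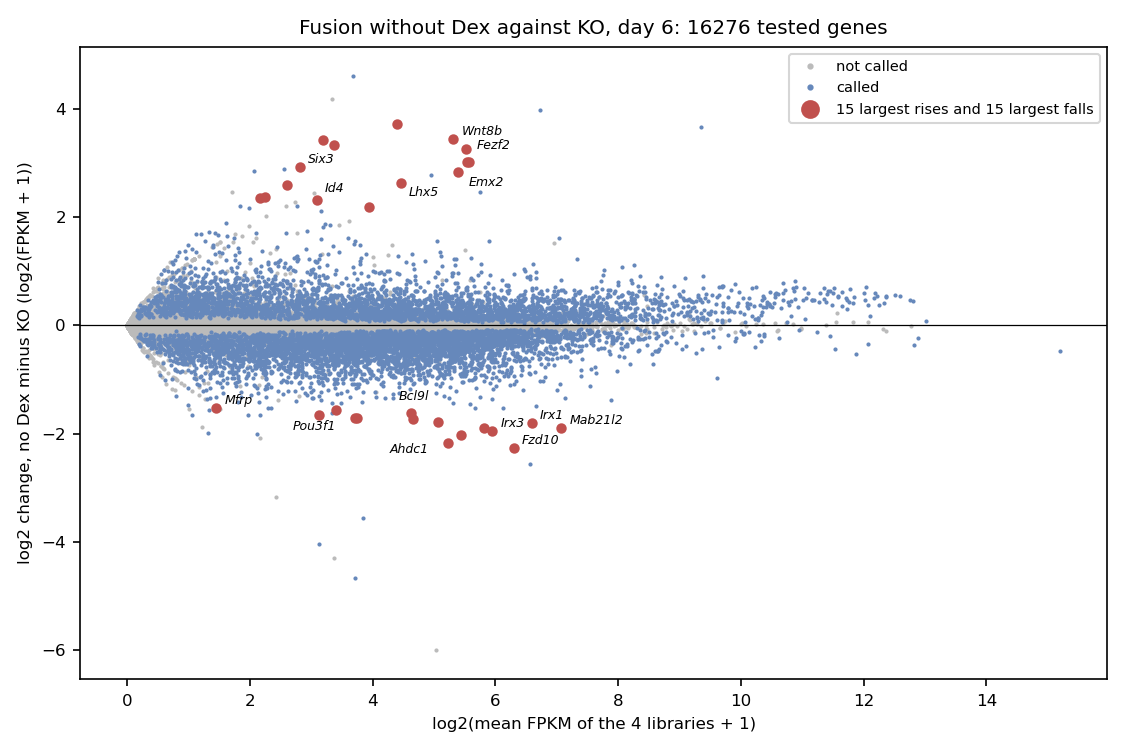
Change between fusion line without Dex and KO at day 6 for each of the 16276 tested genes. The x axis is the level, log2(mean FPKM of the 4 libraries + 1), and the y axis the log2 change. Blue points were called, grey points were not, and red points are the 15 largest rises and 15 largest falls by the naming rule, some with their symbols. Unmarked points further out are mostly predicted genes or genes whose duplicates differ widely. Wnt8b stands at 3.44 and Fezf1 at 3.34 among the rises, and the falls reach -2.26 (Fzd10).

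The genes with the largest rises were largely regulators of the anterior forebrain and dorsal midline signals. Of 18 listed anterior forebrain genes 14 could be tested, of which 8 rose, 1 fell and 5 were not called, with a median change of 1.76. With the GC and length trend described below removed, 9 were higher and 0 lower. Each of the 8 rose by more than 1.5. Fezf1 and Fezf2 encode zinc-finger repressors of the anterior neural plate that oppose caudal fates. Fezf1 was at 0.76 and 0.97 FPKM in KO and 18.1 and 17.7 FPKM without Dex (log2 change 3.34 ± 0.05, limma adjusted p = 7.7e-20), and Fezf2 was at 8.1 and 7.31 FPKM in KO and 82.1 and 83.3 FPKM without Dex (log2 change 3.27 ± 0.05, limma adjusted p = 7.7e-20). Both libraries without Dex stood far above both KO libraries for either gene. Emx2, a homeobox gene of the dorsal telencephalon, was at 8.22 and 10.4 FPKM in KO and 72.4 and 72.4 FPKM without Dex, 7.78-fold higher (log2 change 2.84 ± 0.20, limma adjusted p = 6.87e-10). Its relative Emx1 was at 0.37 and 0.29 FPKM in KO and 3.21 and 3.25 FPKM without Dex (1.67). Lhx5, a LIM-homeobox gene that promotes forebrain identity, was at 5.1 and 5.18 FPKM in KO and 36.4 and 37.2 FPKM without Dex (log2 change 2.62 ± 0.06, limma adjusted p = 4.4e-17). Fgf8, the ligand of the anterior neural ridge, was at 3.6 and 3.05 FPKM in KO and 14.2 and 14.9 FPKM without Dex (log2 change 1.85 ± 0.16, limma adjusted p = 8.13e-09). Hesx1 was at 0.13 and 0.24 FPKM in KO and 0.32 and 0.08 FPKM without Dex, and its groups overlapped. The ventral genes Nkx2-1 and Shh were at or below 0.05 FPKM in all 4 libraries.

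**Figure D2:**
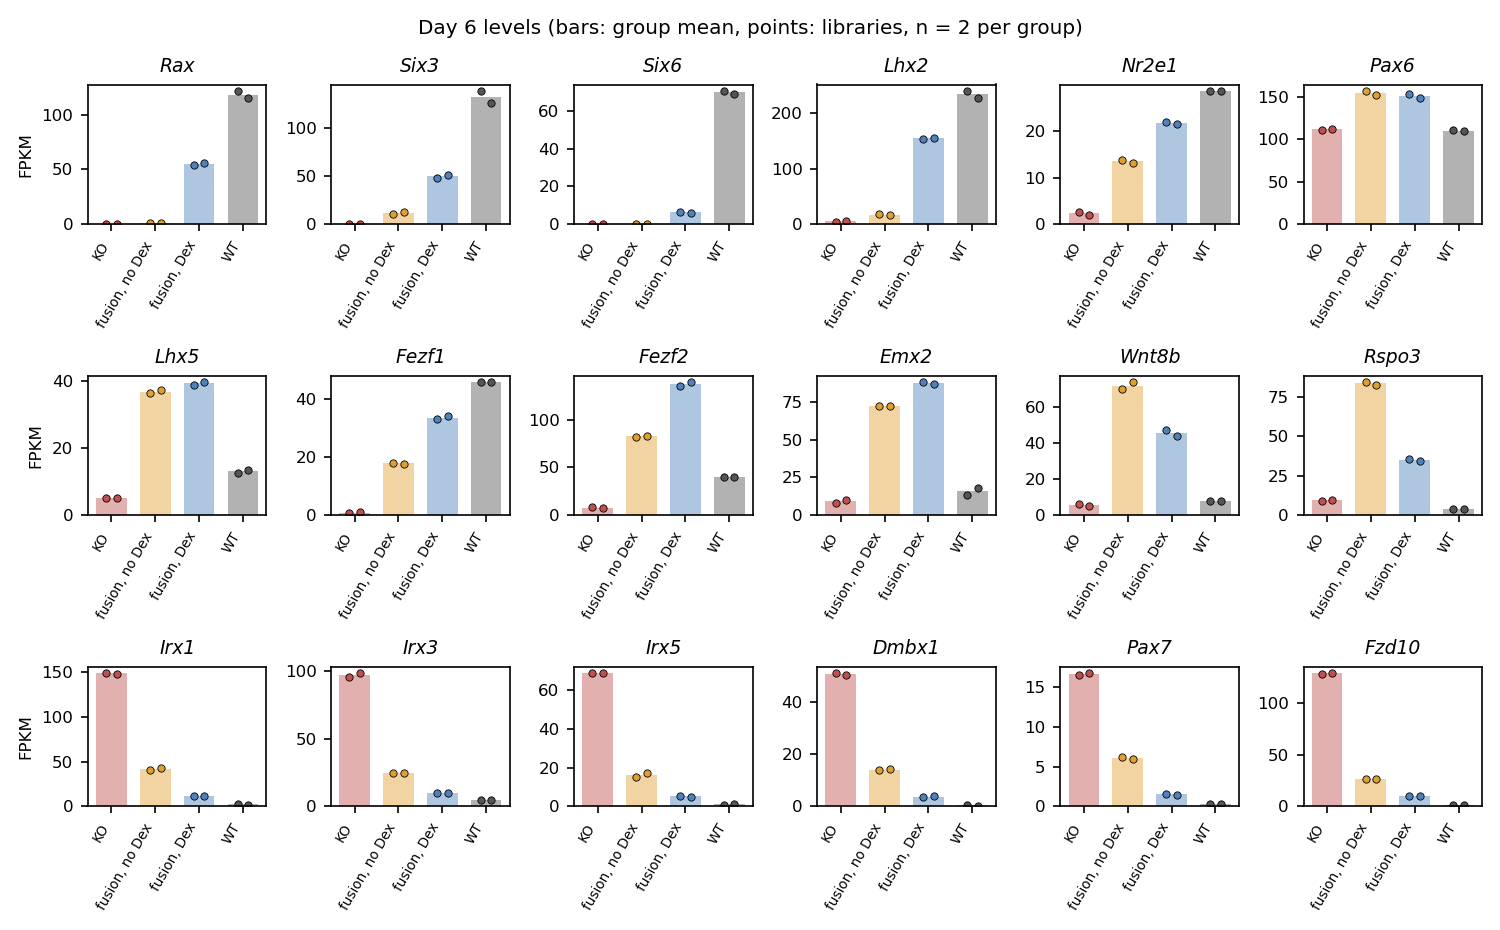
FPKM at day 6 of eye-field genes (top row), genes that rose without Dex (middle row) and genes that fell (bottom row). Bars are means of 2 libraries and points the libraries, for KO, the fusion line without and with Dex, and WT, and each panel has its own linear scale from 0. Without Dex, Rax and Six6 were far below WT, Emx2, Wnt8b and Rspo3 stood above both KO and WT, and Irx1, Irx3, Irx5, Dmbx1, Pax7 and Fzd10 stood between KO and WT.

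Some of these genes stood above the WT level as well. For Emx2 the WT mean was 16 FPKM and no Dex minus WT was 2.13 (limma adjusted p = 1.99e-08). Fezf2 had 40.0 FPKM in WT, and with Dex its mean was 137 FPKM. Fezf1 and Six3 remained under WT, with differences of -1.31 (limma adjusted p = 1.69e-14) and -3.42 (limma adjusted p = 2.26e-18). These genes were chosen for high values in the libraries without Dex, which both differences share.

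Eye-field genes were higher without Dex for 5 of 9 members and lower for 2. Six3, which represses Wnt genes in the anterior neural plate, was at 0.69 and 0.58 FPKM in KO and 10.7 and 12.2 FPKM without Dex, 18-fold higher (log2 change 2.92 ± 0.07, limma adjusted p = 1.54e-16), against 132 FPKM in WT. An antisense gene overlaps its locus, and use of strand in the counting is not given in the sources used here. Lhx2, a LIM-homeobox gene needed for optic vesicle growth, was at 4.59 and 5.35 FPKM in KO and 18 and 16.6 FPKM without Dex (log2 change 1.62 ± 0.14, limma adjusted p = 7.95e-09), against 234 FPKM in WT. Nr2e1 (Tlx), a nuclear receptor of forebrain and retinal progenitors, was at 2.7 and 2.03 FPKM in KO and 13.8 and 13.2 FPKM without Dex (log2 change 2.12 ± 0.07, limma adjusted p = 2.2e-14). Rax, the gene whose promoter names the reporter line, rose from 0.28 and 0.32 FPKM to 0.79 and 1.03 FPKM (log2 change 0.55 ± 0.06, limma adjusted p = 5.47e-07) and stayed under 118 FPKM of WT and 54.7 FPKM with Dex. Pax6 was at 111 and 112 FPKM in KO and 156 and 152 FPKM without Dex (log2 change 0.46 ± 0.15, limma adjusted p = 0.0144), and WT had 110.1 FPKM. This call was lost with a pseudocount of 0.1 and when any of 3 of the 4 libraries was left out (0.44 to 0.47). Six6 was at 0.02 and 0.02 FPKM in KO and 0.01 and 0.01 FPKM without Dex, at or under the level of 3 fragments, against 69.7 FPKM in WT. Otx2 (-0.27) and Mab21l2 fell, the latter from 212 and 211 FPKM to 56.6 and 55.8 FPKM (log2 change -1.90 ± 0.05, limma adjusted p = 8.04e-16), toward 15.1 FPKM in WT.

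Among 23 tested genes of optic vesicle patterning, 6 rose and 9 fell, with a median of -0.08. After the GC and length trend was removed 10 were higher and 7 lower, and the median was 0.05. Hes1, a repressor of neuronal differentiation that WT expressed at 182 FPKM, rose from 27.6 and 27.3 FPKM to 54.8 and 53.8 FPKM (log2 change 0.96 ± 0.08, limma adjusted p = 3.05e-09). Foxd1, a temporal retina and forebrain factor, rose from 0.48 and 0.42 FPKM to 1.59 and 1.72 FPKM (0.87). The ventral optic genes Vax1 and Vax2 were at 0.39 and 2.26 and 0.57 and 0.44 FPKM in KO and at 0.22 and 0.17 and 0.03 and 0.22 FPKM without Dex, against 44.8 and 53.6 FPKM in WT. Both were called lower, but the fall of Vax1 was not called without KO replicate 2 (-0.22), and that of Vax2 not without KO replicate 1 (-0.36) or no Dex replicate 1 (-0.30). The optic stalk gene Pax2 was at 0.4 and 0.36 FPKM in KO and 0.28 and 0.32 FPKM without Dex and was not called (log2 change -0.09 ± 0.05, limma adjusted p = 0.156). Ccnd1, a cell cycle gene abundant in retinal progenitors, fell (-0.51). Of 12 pigment cell genes, 5 could be tested, 1 rose and 2 fell, and the melanin synthesis genes Tyr, Tyrp1 and Dct were at or under 0.39 FPKM in all 4 libraries.

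Promoter sequences of 4 genes are shown, from a RefSeq table of GRCm38.p6 (250 bases before to 50 after each start). Wnt8b and Emx2 are the genes among the 15 largest rises whose promoters held the motif below, and Fzd10 and Dmbx1 are a Wnt receptor and a midbrain gene among the largest falls. They were chosen after their values and sequences were seen. Capitals mark matches of either strand to TAATTA, the core bound by many homeodomain proteins. A second motif, CTTTGAT, the core of sites for TCF/LEF factors, had no match in these 4. The motifs do not overlap each other. The RefSeq starts of Emx2 and Fzd10 lie downstream of the GENCODE gene starts, so these windows fall inside the GENCODE genes.
Wnt8b (chr19:44493222-44493521, plus strand): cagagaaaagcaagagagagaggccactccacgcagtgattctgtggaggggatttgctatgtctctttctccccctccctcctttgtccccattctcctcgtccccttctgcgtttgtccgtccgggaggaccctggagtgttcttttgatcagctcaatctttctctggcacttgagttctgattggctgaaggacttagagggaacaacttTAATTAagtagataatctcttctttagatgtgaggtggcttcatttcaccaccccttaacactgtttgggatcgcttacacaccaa
Emx2 (chr19:59458440-59458739, plus strand): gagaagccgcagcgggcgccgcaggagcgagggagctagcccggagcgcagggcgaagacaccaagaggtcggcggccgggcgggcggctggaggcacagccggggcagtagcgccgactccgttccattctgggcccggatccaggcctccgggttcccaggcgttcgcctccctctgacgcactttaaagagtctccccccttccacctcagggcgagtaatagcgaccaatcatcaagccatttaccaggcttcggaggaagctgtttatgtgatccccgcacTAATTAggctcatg
Fzd10 (chr5:128600856-128601155, plus strand): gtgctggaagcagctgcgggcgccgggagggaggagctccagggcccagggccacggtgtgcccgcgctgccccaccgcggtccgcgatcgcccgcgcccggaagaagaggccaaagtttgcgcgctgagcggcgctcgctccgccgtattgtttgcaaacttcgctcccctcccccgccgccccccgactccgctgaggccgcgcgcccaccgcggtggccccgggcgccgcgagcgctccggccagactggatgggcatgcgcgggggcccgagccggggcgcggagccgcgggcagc
Dmbx1 (chr4:115939877-115940176, minus strand): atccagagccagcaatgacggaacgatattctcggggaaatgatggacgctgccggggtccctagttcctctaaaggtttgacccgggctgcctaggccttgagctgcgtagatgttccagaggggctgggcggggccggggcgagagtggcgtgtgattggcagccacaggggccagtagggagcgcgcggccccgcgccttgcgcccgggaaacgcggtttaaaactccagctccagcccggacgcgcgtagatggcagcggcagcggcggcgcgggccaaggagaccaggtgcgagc
Wnt8b and Emx2 each held 1 TAATTA match, and Fzd10 and Dmbx1 held 0. GC content of these windows was 48.3% for Wnt8b, 64.3% for Emx2, 77.7% for Fzd10 and 66.7% for Dmbx1. Of the 15 genes with the largest rise 11 had a promoter in the table, 2 with TAATTA and 1 with CTTTGAT. Of the 15 with the largest fall 9 had one, 0 with TAATTA and 2 with CTTTGAT. Over all 32851 promoters of the table, 5.29% held TAATTA and 3.73% held CTTTGAT. A match is a description of letters and not a bound site.

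Some Wnt ligands and R-spondins were among the largest rises, and Fzd10, a Wnt receptor, was among the largest falls. Wnt8b, a ligand of the dorsal and caudal forebrain midline (chromosome 19, 44493472 to 44514273, plus strand), was at 6.13 and 5.37 FPKM in KO and 70.1 and 73.9 FPKM without Dex, 12.5-fold higher (log2 change 3.44 ± 0.07, limma adjusted p = 1.09e-17). Wnt7b was at 9.34 and 9.12 FPKM in KO and 81.6 and 81.3 FPKM without Dex, 8.82-fold higher (log2 change 3.01 ± 0.06, limma adjusted p = 4.22e-18). Its paralog Wnt7a was at 0.12 and 0.15 FPKM in KO and 2.09 and 1.98 FPKM without Dex (1.42). Rspo3, a secreted amplifier of Wnt signalling, was at 9.32 and 9.44 FPKM in KO and 84.5 and 83 FPKM without Dex, 8.93-fold higher (log2 change 3.03 ± 0.05, limma adjusted p = 5.69e-19), and its relative Rspo2 was at 18.4 and 18.2 FPKM in KO and 48.5 and 47.9 FPKM without Dex (1.35). All 5 stood above the WT means, which were 7.83 FPKM for Wnt8b, 17.1 FPKM for Wnt7b, 0.885 FPKM for Wnt7a, 3.98 FPKM for Rspo3 and 2.23 FPKM for Rspo2. With Dex the means of Wnt8b and Rspo3 were lower than without, at 45.6 and 35 FPKM. Other ligands went down, among them Wnt1 (58 and 59.4 against 37.9 and 40.6 FPKM, KO first), Wnt3 (8.02 and 8.21 against 4.41 and 4.22 FPKM) and Wnt10b (2.54 and 2.85 against 0.81 and 0.79 FPKM).

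Fzd10, a Frizzled receptor of the dorsal neural tube (chromosome 5, 128600844 to 128604093, plus strand), had the largest fall of all genes eligible for naming, from 129 and 129.5 FPKM to 26 and 26.2 FPKM, 4.94-fold lower (log2 change -2.26 ± 0.07, limma adjusted p = 6.55e-15). Its WT mean was 1.29 FPKM. Fzd8 (-1.26), Fzd9 (-1.01) and the Wnt5a receptor Ror2 (-0.87) fell too, while Fzd4 rose (0.5 and 0.53 against 2.2 and 2.16 FPKM). Of 27 tested Wnt ligands and receptors 7 rose and 14 fell, with a median of -0.21. After the GC and length trend was removed the counts were 11 and 8 and the median 0.05, so the balance of this list depends on that step. Of 26 antagonists, modulators and targets 8 rose and 9 fell, and 13 were higher and 8 lower with the trend removed. Axin2, a feedback target of the pathway, was at 57 and 56.7 FPKM in KO and 43.5 and 44 FPKM without Dex (log2 change -0.37 ± 0.08, limma adjusted p = 0.000799) and in WT at 5.99 FPKM. With the GC and length trend removed its change was -0.10 and not called. Nkd1 (0.62), Sfrp1 (0.51) and Lef1 (0.55) rose, and Lgr5 (-0.98), Apcdd1 (-0.94), Frzb (-0.83) and Tcf7l1 (-0.75), the repressor of the TCF family, fell. Targets and feedback genes of the pathway thus did not share a direction.

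Genes of the diencephalon, midbrain and hindbrain fell for 14 of 27 tested members and rose for 4, with a median of -0.37. With the GC and length trend described below removed, 13 were lower and 6 higher, and the median was -0.22. The Iroquois homeobox genes, which mark territory behind the anterior forebrain, fell together. Irx3 (chromosome 8) was at 95.3 and 98.2 FPKM in KO and 24.3 and 24.4 FPKM without Dex, 3.98-fold lower (log2 change -1.95 ± 0.06, limma adjusted p = 4.07e-15). Irx5, its neighbour in the cluster, was at 68.8 and 68.9 FPKM in KO and 15.2 and 17 FPKM without Dex (log2 change -2.03 ± 0.09, limma adjusted p = 1.27e-12). Irx1 and Irx2, of the chromosome 13 cluster, went from 149 and 148 and 101 and 105 FPKM in KO to 40.9 and 43.1 and 35.4 and 35 FPKM without Dex. WT means were between 1.06 FPKM (Irx5) and 4.32 FPKM (Irx3), so all 4 remained above WT. Dmbx1, a homeobox gene of the midbrain and caudal diencephalon, fell from 51.3 and 50.5 FPKM to 14 and 14.2 FPKM (log2 change -1.78 ± 0.05, limma adjusted p = 4.24e-15). The dorsal midbrain genes Pax7 (16.6 and 16.8 against 6.22 and 5.98 FPKM, KO first) and Pax3 (33 and 32.8 against 19.3 and 19.6 FPKM) fell, as did Meis1 (-1.33) and Foxb1 (-1.02). Barhl2, a diencephalic gene, was an exception and rose from 12.4 and 12.7 FPKM to 20.7 and 21.4 FPKM (log2 change 0.70 ± 0.05, limma adjusted p = 5.76e-10), and Lmx1a, a roof plate gene, rose from 5.73 and 5.72 FPKM to 8.89 and 7.98 FPKM (0.49). Summed over 8 midbrain and diencephalon markers, the level was 469.75 to 476.82 FPKM in KO and 174.75 to 180.7 FPKM without Dex, most of it Irx1, Irx2 and Irx3. Over 5 anterior forebrain markers it was 12.17 to 14.7 FPKM and 128.53 to 129.9 FPKM, most of it Emx2. Both sums thus largely repeat genes already named. The homeobox genes of the hindbrain Hoxb1, Hoxa2 and Hoxb2 were at or under 0.33 FPKM in all 4 libraries.

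**Figure D3:**
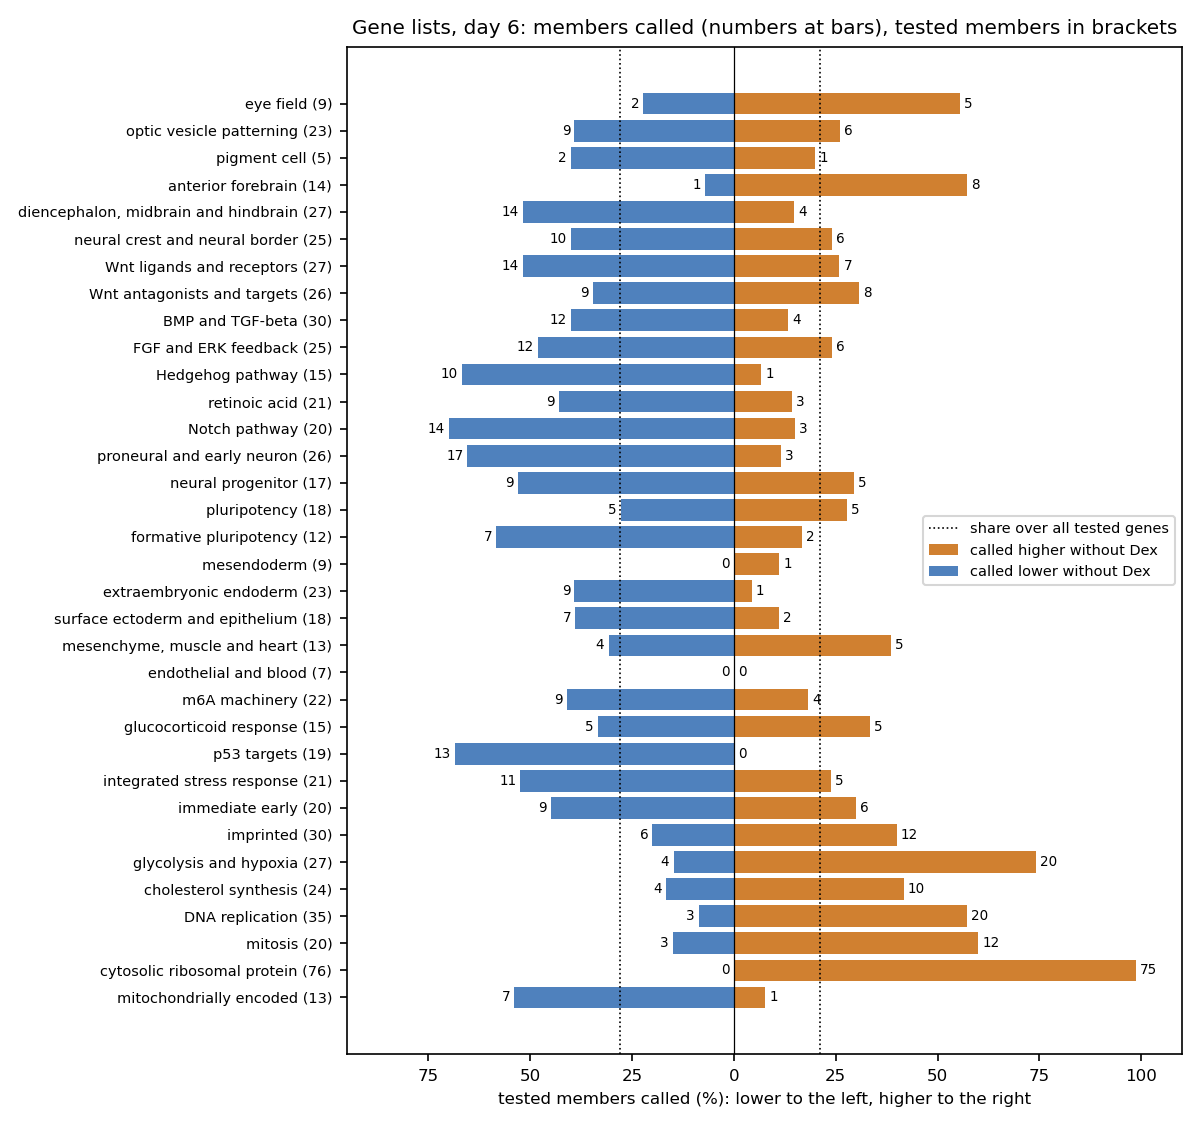
Share of the tested members of each gene list called higher (orange, right) or lower (blue, left) without Dex than in KO at day 6. Numbers at the bars are called members, brackets give tested members, and dotted lines mark the shares over all tested genes, 21.1% higher and 27.9% lower. Ribosomal protein genes (75 of 76) lie furthest to the right, and Notch, p53 and Hedgehog genes to the left.

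Notch pathway and neuronal differentiation genes were mostly lower. Of 20 Notch genes 14 fell and 3 rose, with a median of -0.49. With the GC and length trend removed 12 were lower and 4 higher, with a median of -0.27, and the change of Notch3 was -0.585. The receptors Notch1 (11.5 and 10.3 against 5.3 and 5.52 FPKM, KO first) and Notch3 (46.2 and 44 against 18.1 and 18.6 FPKM), the ligands Dll3 (-0.68), Jag1 (-0.74) and Jag2 (-0.96), and Lfng (-0.95), a glycosyltransferase that tunes the receptors, fell. The effector Hes5 was at 144 and 147 FPKM in KO and 67 and 74.8 FPKM without Dex (log2 change -1.03 ± 0.18, limma adjusted p = 6.89e-05), opposite to Hes1 above, and Hey1 (0.53) and Heyl (0.63) rose. Of 26 proneural and early neuron genes 17 fell and 3 rose, with a median of -0.26. The proneural gene Neurog1 (18.5 and 17.9 against 8 and 9.02 FPKM) and the neuronal differentiation factor Insm1 (16.7 and 15.8 against 7.02 and 7.33 FPKM) fell, with log2 changes of -1.02 and -1.08. Tubb3, a neuronal tubulin, fell from 268 and 264 FPKM to 211 and 213 FPKM (-0.33). Isl1 rose from a low level (0.75). The summed level of 4 neuron markers was 297.18 to 301.08 FPKM in KO and 236.95 to 239.54 FPKM without Dex, most of it Tubb3. Among 17 progenitor genes 5 rose and 9 fell. Vim (0.42), Prom1 (0.77) and Cdh2 (0.65), a filament and membrane proteins of the neuroepithelium, rose. Msi1 (-0.83) and Pou3f1 (19.3 and 19 against 5.22 and 5.16 FPKM) fell.

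Other signalling lists leaned to lower values. Hedgehog genes fell for 10 of 15 tested members and rose for 1, with a median of -0.28, which became -0.02 with 4 higher and 4 lower after the GC and length trend was removed. Gli1, a direct readout of the pathway, was at 1.36 and 1.35 FPKM in KO and 0.31 and 0.28 FPKM without Dex (log2 change -0.86 ± 0.08, limma adjusted p = 3.86e-08), and the coreceptor Gas1 was at 179 and 178 FPKM in KO and 76.4 and 77.6 FPKM without Dex (log2 change -1.20 ± 0.09, limma adjusted p = 1.36e-09), while the ligands Shh, Ihh and Dhh were at most at 0.3 FPKM in these libraries. With the GC and length trend removed the changes of Gli1 and Gas1 were -0.375 and -0.74, both still called. BMP and TGF-beta genes rose for 4 and fell for 12 of 30. Id1, a BMP target, fell from 254 and 262 FPKM to 137 and 144 FPKM (log2 change -0.87 ± 0.03, limma adjusted p = 2.38e-15), as did Msx1 (52.5 and 54.5 against 20.1 and 20.8 FPKM), Id2 (-0.62) and Smad7 (-0.88). Id4 went the other way, from 1.78 and 1.92 FPKM to 13.3 and 13 FPKM (log2 change 2.31 ± 0.08, limma adjusted p = 2.54e-14). Of 25 genes of FGF signalling 6 rose and 12 fell. Beside the ligand Fgf8, the feedback inhibitors Spry1 (4.1 and 4.11 against 11.5 and 11.8 FPKM), Dusp6 (0.64) and Il17rd (0.81) rose, whereas Etv4 (-0.87), Egr1 (5.71 and 5.72 against 2.16 and 1.87 FPKM) and the receptors Fgfr2 (-0.62) and Fgfr3 (-0.90) fell. Of 21 retinoic acid genes 3 rose and 9 fell, with Stra6, a retinol transporter, at -0.67.

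Neural crest and border genes were mixed, with 6 of 25 higher and 10 lower. Sox9 (8.88 and 8.31 against 16.2 and 16.3 FPKM, KO first) and Tfap2c (5.14 and 5.13 against 14.3 and 15.3 FPKM) rose, and Snai2 (-0.83) and Zic2 (-0.84) fell. The 5 neural crest markers summed to 49.81 to 50.9 FPKM in KO and 56.11 to 56.79 FPKM without Dex. In the list of mesenchyme, muscle and heart genes 5 of 13 rose and 4 fell. Prrx1 rose (2.97 and 3.07 against 7.1 and 7.45 FPKM), and the smooth muscle genes Acta2 (12.1 and 11 against 4.39 and 4.29 FPKM) and Tagln (-1.04) fell. The part of such cells in the other changes was not tested. Of 18 pluripotency genes 5 rose and 5 fell with a median of 0.02.

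Targets of p53, with Trp53 itself, were lower for 13 of 19 genes, and the other 6 were not called. After median-of-ratios rescaling 11 were lower and 1, Trp53, was higher. Cdkn1a (p21), a cell cycle inhibitor, fell from 56.5 and 56.9 FPKM to 22.5 and 25.1 FPKM, 2.38-fold (log2 change -1.22 ± 0.06, limma adjusted p = 4.07e-12). Aen, a nuclease (249.7 and 247 against 147 and 145 FPKM), Phlda3 (61.9 and 60.9 against 33.8 and 37 FPKM) and Sesn2 (36 and 35.6 against 21.8 and 21.3 FPKM) fell, while Trp53 was at 83.2 and 81.1 FPKM in KO and 86.5 and 84.5 FPKM without Dex and was not called (log2 change 0.06 ± 0.03, limma adjusted p = 0.0812). With the GC and length trend removed 14 genes of the p53 list were lower and 1, Trp53, was higher. Cdkn1a, Aen and Phlda3 then stood at -1.08, -0.68 and -0.71. Sesn2 stood at -0.22, against -0.71 before, and was still called. Immediate early genes fell for 9 of 20 and rose for 6, and with the GC and length trend removed 5 were lower and 6 higher. Of 15 tested glucocorticoid response genes 5 rose and 5 fell, and with that trend removed 7 were higher and 2 lower. The metallothioneins Mt1 (58.9 and 60.9 against 136 and 131 FPKM) and Mt2 (46.6 and 50.0 against 82.2 and 93.2 FPKM), which metals also induce, and Tsc22d3 (0.41) rose, and Zbtb16 (-0.92) and Per1 (-0.49, not called with the GC and length trend removed) fell. Genes of the integrated stress response rose for 5 and fell for 11 of 21, and their median of -0.15 was -0.00 after the GC and length trend was removed.

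Most genes of the ribosomal, glycolytic and replication lists rose. Of 76 cytosolic ribosomal protein genes 75 were higher, with a median of 0.52, and Rplp0 was the exception at 0.04. Their transcripts are short (median 1100 bases), and with the GC and length trend removed 71 were higher and 0 lower, with a median of 0.40. Ribosomal protein genes have many processed pseudogenes, between which the counting could split fragments. Of the 10 named genes with the largest gain in FPKM, 9 encode ribosomal proteins, such as Rps15 (4744 and 4722 against 6914 and 7018 FPKM, KO first), and the tenth is Tmsb10, an actin-binding peptide (3232 and 3257 against 4909 and 4979 FPKM). Glycolysis and hypoxia genes rose for 20 of 27 and fell for 4. Hk2 (20.1 and 22.1 against 40.2 and 45.6 FPKM), Gpi1 (0.57), Pgk1 (0.56) and Mif (0.69) rose, and Vegfa fell (-0.58). DNA replication genes rose for 20 of 35 and fell for 3, with small changes (median 0.13), and 12 of 20 mitosis genes rose. Cholesterol synthesis genes rose for 10 of 24, among them Hmgcs1 (0.53). Mitochondrially encoded genes fell for 7 of 13 and rose for 1. Among them mt-Atp8 was at 45110.0 and 42623 FPKM in KO and 31969 and 31562 FPKM without Dex (log2 change -0.47 ± 0.09, limma adjusted p = 0.000185). Of 30 imprinted genes 12 rose and 6 fell. Meg3 (361 and 364 against 586 and 612 FPKM), Rian (0.82) and Mirg (0.99), noncoding RNAs of 1 cluster on chromosome 12, rose together, as did Nnat (193 and 189 against 413 and 421 FPKM) and Plagl1 (10.5 and 12.2 against 28.8 and 29.4 FPKM). Snrpn (-0.44), which overlaps Snurf so that their fragments cannot be told apart, Ndn (-0.48) and Magel2 (-0.91), of 1 imprinted domain on chromosome 7, fell.

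Some of the largest falls had no place in the lists. Ahdc1, which encodes a DNA-binding protein, was at 60.6 and 60.4 FPKM in KO and 12 and 13.4 FPKM without Dex (log2 change -2.16 ± 0.06, limma adjusted p = 4.07e-15). Kmt2d, a histone methyltransferase, was at 39 and 36.2 FPKM in KO and 10.5 and 10.8 FPKM without Dex (log2 change -1.72 ± 0.08, limma adjusted p = 3.74e-12). Mn1 (-1.71), a transcriptional coactivator, and Bcl9l (-1.61), a cofactor of beta-catenin, fell too. The longest annotated transcripts of these 4 genes have a GC share of 59.9%, 58.4%, 61% and 60.1%. With the GC and length trend removed their changes were -1.50 for Ahdc1, -1.06 for Kmt2d, -1.05 for Mn1 and -0.95 for Bcl9l, all still called. Cx3cl1, a membrane-bound chemokine, fell from 88.4 and 86.7 FPKM to 21.8 and 24 FPKM (log2 change -1.89 ± 0.11, limma adjusted p = 6.26e-11). Grm4 (-1.66), a glutamate receptor, Sphk1 (-1.56), a lipid kinase, and Mfrp (-1.53) were the others. Among rises outside the lists, the neurotrophin receptor gene Ntrk2 was at 0.53 and 0.56 FPKM in KO and 7.24 and 6.73 FPKM without Dex (log2 change 2.37 ± 0.13, limma adjusted p = 1.4e-11), Chst1, a sulfotransferase, was at 4.43 and 4.63 FPKM in KO and 24.7 and 23.4 FPKM without Dex (2.18), Prr15 was at 0.45 and 0.49 FPKM in KO and 6.38 and 6.72 FPKM without Dex (2.36), and the noncoding rows Mir9-3hg (2.60), host of a neural miRNA, and AW047730 (3.42) were among the 15.

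The change moved with the base composition and length of transcripts. Genes were split into 5 equal bins by the GC share of their longest GENCODE M21 transcript. The median change was 0.08 in the bin lowest in GC, with 33.5% of genes called higher and 11.2% lower, and -0.21 in the highest bin, with 11.4% higher and 48.8% lower. Within the highest GC bin the median went from 0.08 for the shortest transcripts to -0.43 for the longest, of which 73.7% were called lower. At day 4 the medians were -0.04 in the lowest and -0.02 in the highest GC bin, and at day 0 they were -0.16 and 0.10. Genes called lower had a median transcript length of 3481 bases and genes called higher 2743 bases. The consensus pentamer of m6A sites, GGACT, occurred 1.14 times per kb in genes called lower and 0.91 times in genes called higher. Within the middle GC bin these medians were 1.12 and 1.06, against 1.06 in genes not called. Removing the GC and length trend from every library left 7148 calls, 47.9% of them higher against 43.1% before, and 5400 of the calls were made in both fits with 1 direction. The step shifts genes near 0 FPKM with their bin, by its construction. The part of library preparation in this trend was not tested.

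**Figure D4:**
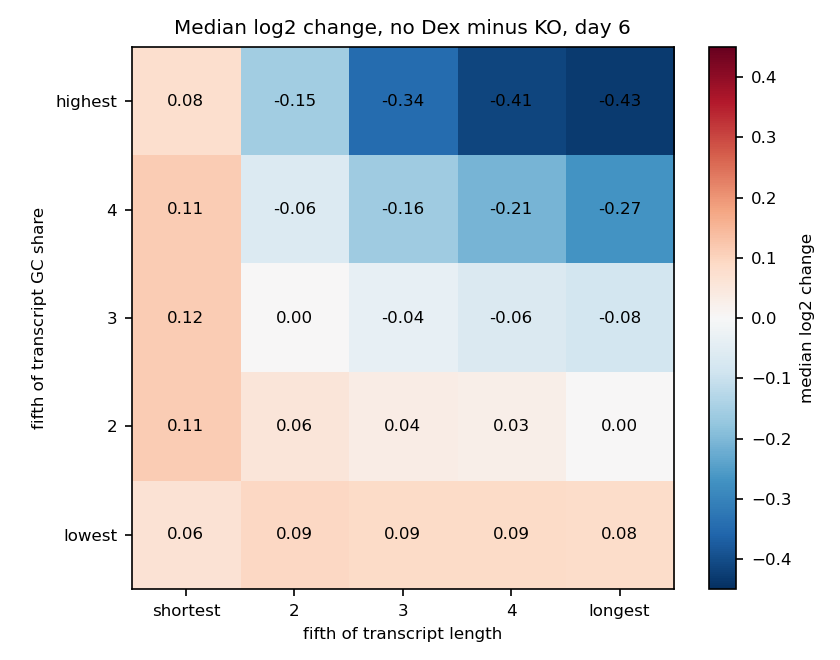
Median log2 change at day 6 (no Dex minus KO) of tested genes by 5 bins of the GC share (y axis) and 5 of the length (x axis) of their longest annotated transcript. Each cell prints its median, and the colour runs from blue (lower) to red (higher). Medians are positive for the shortest transcripts at every GC share and reach -0.43 in the longest, most GC-rich ones.

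The day 6 difference was set against that of day 4 and of day 0, with which it shares no library. It differed from the day 4 difference for 5384 genes, 33.1% of those tested (2589 more positive and 2795 more negative at day 6), and from the day 0 difference for 8103 genes, 49.8%. Wnt7b was slightly lower without Dex at day 4 (2.58 against 4.16 FPKM in KO) and its difference grew by 3.54 to day 6 (SE 0.08, limma adjusted p = 2.88e-16). Rspo3 (3.14), Wnt8b (2.82) and Emx2 (2.11) also gained most of their difference after day 4. By contrast Fezf1, at 1.96 and 12 FPKM at day 4, and Six3, at 7.13 and 33.8 FPKM, already differed then. Rax without Dex was higher at day 4 (6.47 FPKM, against 1.21 FPKM in KO) than at day 6, and its difference shrank by a contrast of -1.21 (limma adjusted p = 5.42e-09). Six3 without Dex likewise had 33.8 FPKM at day 4 and a mean of 11.4 FPKM at day 6. Irx3 went from 95.6 FPKM at day 4 to 96.8 FPKM at day 6 in KO, while without Dex it went from 58.5 FPKM to 24.3 FPKM. Fzd10 went from 4.17 FPKM to 129 FPKM in KO and from 1.72 FPKM to 26.1 FPKM without Dex.

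**Figure D5:**
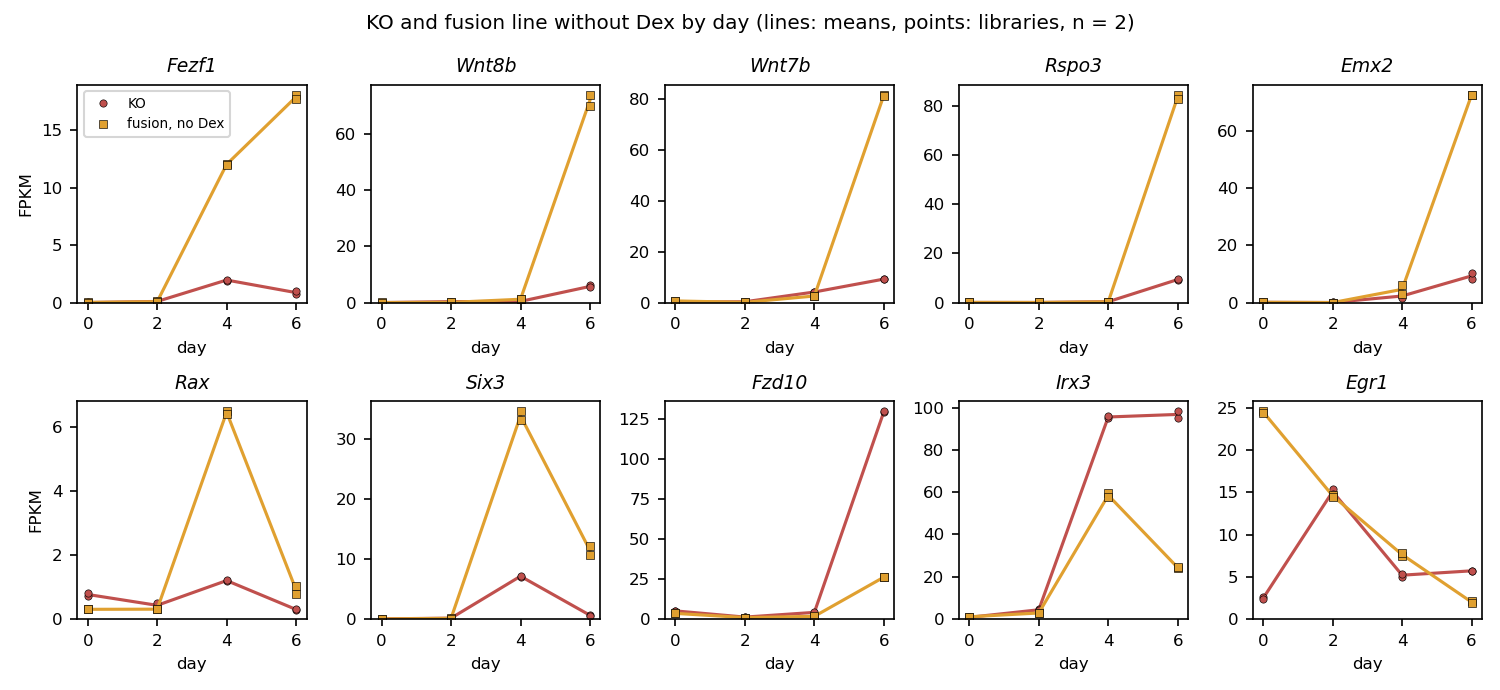
FPKM by day in KO (red circles) and the fusion line without Dex (orange squares) for 10 genes. Points are libraries (2 per group and day) and lines join group means, on linear axes from 0. Wnt8b, Wnt7b, Rspo3 and Emx2 separate between days 4 and 6, Rax and Six3 without Dex are highest at day 4, Fezf1 already differs there, and Egr1 changes order between the days.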

How the data were processed

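Polyadenylated RNA of the 4 day 6 libraries was analysed with the other 28 of the series. The table deposited by the authors holds FPKM per gene, rounded to 2 decimals, for 55492 rows. The submitters' processing notes name STAR, Cuffdiff and mm10, without versions, and counting settings are not given in the sources used here. No column was left without a sample. Groups came from the sample titles. The members, gene lists, naming rule and alternatives were chosen with earlier results of these data known.

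In R 4.3.3, limma 3.58.1 was fitted to log2(FPKM + 1) of all 32 libraries (16 group means, 16 residual degrees of freedom, eBayes with trend) for genes with at least 1 FPKM in at least 2 libraries. Tests were two-sided, with Benjamini-Hochberg adjustment over 16276 genes at 0.05. Checked on 5 sets of simulated data with 200 of 16276 genes changed by 1 at day 6, a mean of 181.6 were recovered and 4.7% of calls were false. The simulated noise was normal and independent, without the GC and length trend and with far fewer changed genes than were called here. It therefore checks the working of the fit and cannot give the share of false calls in the real data. Depth (28.4 M to 55.0 M fragments, M for mega) was read off the spacing of low FPKM values. Positions, transcript lengths and GC shares came from GENCODE M21, matched for 99.4% of rows. Named genes were members of the lists, the 15 largest rises and falls, the 10 largest gains and losses in FPKM, and the 10 most positive and negative day 6 minus day 4 contrasts, among called genes whose libraries did not overlap, with 1 FPKM in the higher group and not predicted. Some genes of these lists are not reported here. Alternatives are given in the closing section. Same-numbered libraries of the groups did not deviate together (correlation -0.01), so numbers were not used as pairs.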

Additional observations from a re-analysis of the deposited data

Results flagged for a closer look

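The difference between the fusion line without Dex and KO at day 6 differed from the same difference at day 4 for 5384 genes, and from that at day 0 for 8103 genes, by interaction contrasts in limma (adjusted p under 0.05). The genes below are among the 10 with the most positive and the 10 with the most negative contrast with day 4 by the naming rule, and values are differences of log2 changes.

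The most positive contrasts included those of Wnt-related ligands and, with a smaller value, of the homeobox gene Emx2. The contrast was 3.54 for Wnt7b, 3.14 for Rspo3, 2.82 for Wnt8b and 2.11 for Emx2. It was 3.44 for the noncoding AW047730, 2.73 for Chst1, 2.32 for Mir9-3hg, 2.3 for Prr15 and 2.27 for Id4. Rspo3, Wnt8b, AW047730, Prr15 and Id4 had means at or under 1.19 FPKM in both groups at day 4.

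On the negative side the contrast was -1.85 for Pou3f1, a POU factor of neural progenitors, -1.52 for the proneural gene Neurog2, -1.57 for the BMP target Msx1, -1.64 for the immediate early gene Egr1 and -1.67 for the axon guidance receptor Robo3. It was -1.64 for Rsc1a1, -1.62 for Stum, -1.59 for Mn1, -1.55 for Pkd1 and -1.53 for Vtn, which encodes vitronectin. Vtn at day 4 was at 0.255 FPKM in KO and 0.255 FPKM without Dex, and at day 6 at 74.8 and 25.4 FPKM. Neurog2 was at 0.99 and 3.83 FPKM at day 4 and at 2.23 and 1.73 FPKM at day 6.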

How the results depend on the processing

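The removal of the GC and length trend was chosen last, after these values were seen, and the other alternatives with earlier results of these data known. Requiring a change of at least 1 lowered the counts of calls by its construction, to 331 for the day 6 comparison, 241 for day 6 minus day 4 and 713 for day 6 minus day 0. The 3 counts stayed within 1.5 times under every other setting tried. With 1 library left out, and the lone one assumed to vary like the other groups, the day 6 count lay between 6822 and 7002, the day 6 minus day 4 count between 4607 and 4859 and the day 6 minus day 0 count between 7369 and 7556. A block for the replicate number gave 7966 calls at day 6, and it changed no call of a gene named here. Same-numbered libraries were hardly correlated (-0.09 to 0.13 over 120 pairs of groups).

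Of 1413 values of 157 named genes under 9 alternatives each, 1368 had the direction and call reported above, 21 lost a call, 11 gained one and 13 turned. All 13 belong to genes that were not called. With the trend removed they were Hesx1 (-0.15), Hoxb2 (0.14), Ihh (0.30) and Pax2 (0.33). With a pseudocount of 0.1 it was Hesx1 (-0.024). With each library left out in turn the values ran from -0.13 to 0.157 for Hesx1, from -0.149 to 0.012 for Hoxb2, from -0.057 to 0.011 for Ihh, from -0.14 to 0.014 for Nr3c1 and from -0.11 to 0.258 for the eGFP row. Hes5 was not called with a pseudocount of 0.1 (-1.04). Of 306 list medians 8 had the other sign. Where no cause is given, the cause was not tested.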

Other observations

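The 10 predicted genes that the naming rule leaves out, with a called change over 2.5 in size, were looked at after their values were seen; 6 were higher and 4 lower without Dex. Gm3764, a long noncoding RNA on chromosome 3 (GRCm38 88206813 to 88229959), was at 12.03 and 11.12 FPKM in KO and 192.27 and 203.76 FPKM without Dex (log2 change 3.98). C130093G08Rik (chromosome 6, 23251133 to 23253358), which lies upstream of Fezf1, was at 0.4 and 0.38 FPKM and at 9.14 and 9.56 FPKM (2.9). On chromosome 1, within 6 kb, an annotated pseudogene rose and another fell: Gm29216 was at 101.92 and 86.71 FPKM in KO and 1153.92 and 1263.57 FPKM without Dex, and Gm28439 at 157.18 and 165.72 FPKM and at 25.36 and 27.93 FPKM. For 4 of the 10 genes both libraries of a group are listed at 0, such as Gm10259 (24 and 24.55 FPKM in KO) and Gm12744 (25.26 and 21.84 FPKM without Dex). Pseudogenes share sequence with other genes, and how such fragments were assigned is not given in the sources used here.

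Median changes per chromosome, for chromosomes with at least 100 tested genes, ran from -0.07 on chromosome 11 to 0.09 on chromosome X. There 190 of 587 genes were called higher and 81 lower, against 21.1% higher and 27.9% lower over all tested genes. The part of the GC and length trend in these medians was not tested.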
